A study of Mus musculus with 139 samples.

Results

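The response of mouse embryonic stem cells (ESCs) to 20 h of EXOSC2 depletion was set against the response of fibroblasts made from the same ESC line, gene by gene. For each gene the difference was the log2 change in ESCs (20 h against 0 h) minus the log2 change in the fibroblasts (20 h against 0 h). A positive difference therefore means a higher change in ESCs, from a larger rise in ESCs, a larger fall in fibroblasts, or both. A gene was a member when its mean at 0 h was 1 or more FPKM (fragment counts normalised to transcript length and sequencing depth) in both cell types, which held for 10402 of 52885 genes. Adamts10 in ESCs and B4galnt4 in iMEFs, at 1.00 FPKM, lay just inside this threshold, and Reep2 and AW554918, both at 0.999, just outside. Both cell types carried the AID-FBEXOSC2 degron, in which auxin (indole-3-acetic acid, IAA, at 0.5 mM) triggers degradation of EXOSC2, a core subunit of the RNA exosome. The ESCs were grown with serum and leukemia inhibitory factor (LIF). The fibroblasts, called iMEFs, were made from these ESCs by 10 days in 1 µM retinoic acid without LIF and were selected by quick attachment to uncoated dishes, and the labels describe them as mainly fibroblasts. The comparison used 8 of the series' 139 samples, 2 libraries of rRNA-depleted total RNA for each cell type at 0 h (no IAA) and at 20 h of IAA. The labels do not say whether replicates came from separate cultures, so p-values measure only the spread between these libraries, which may be technical. No control without the degron entered the comparison, so IAA itself and the loss of EXOSC2 cannot be told apart, and all iMEFs shared 1 differentiation protocol.

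The RNA exosome is a nuclear and cytoplasmic complex that degrades RNA from the 3′ end, trims ribosomal RNA and small nucleolar RNA precursors, and removes enhancer and promoter-upstream transcripts. EXOSC2 is one of its cap subunits. The transcription factor p53 raises genes of cell cycle arrest and cell death under stress, and it lowers many cell cycle genes through p21 and the DREAM complex, which binds CHR elements (TTTGAA) near CCAAT boxes in the promoters of mitotic genes and E2F sites in those of replication genes. Mouse ESCs have a short G1 phase and divide fast, whereas fibroblasts pass a longer G1 phase that is more readily stopped.

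The labels were checked against defining genes, in FPKM as deposited. All 8 ESC markers on the list used were at 1 or more FPKM in ESCs at 0 h, with summed values of 1717 and 1774 FPKM, and in iMEFs they summed to 6.00 and 6.25 FPKM, with Klf4 the one of the 8 at 1 or more. All 13 fibroblast genes were at 1 or more FPKM in iMEFs at 0 h, with sums of 2439 and 2443, and 4 of 13 were in ESCs, with sums of 87.8 to 98.3. The iMEFs also held 6 of 7 smooth muscle genes at 1 or more FPKM (sums 3770 and 3868 FPKM at 0 h). Of 8 endoderm genes 4 were at 1 or more FPKM in iMEFs at 0 h (sums 138 to 146). Most of that sum came from Gata6 (55.7 and 60.3) and Lamb1 (66.6 and 68.4). Sox17, Foxa2 and Ttr were below 1 FPKM, and Afp was listed at 0. Of 4 endothelial genes only Kdr was at 1 or more FPKM in these libraries. The blood list was at 0 in every iMEF library at 0 h. At 20 h the ESC markers summed to 476 to 523 FPKM in ESCs, and the fibroblast list to 1871 to 2121 in iMEFs. In bulk RNA, fewer cells of a type and less RNA per cell cannot be told apart. Exosc2 transcripts, whose protein is the one degraded, stood after the rescaling described next at 2.71 and 2.14 at 0 h and 1.55 and 1.45 at 20 h in ESCs and at 1.22 and 1.42 at 0 h and 1.05 and 0.955 at 20 h in iMEFs. Its difference was -0.29 ± 0.26 (95% interval -0.92 to 0.34, adjusted p = 0.43), and since IAA acts on the protein, this transcript does not check the depletion.

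Values were rescaled before testing, and the rescaling bears on every direction below. At 20 h the median member was lower than at 0 h by 0.99 on the log2 scale in ESCs as deposited and by 0.25 in iMEFs. In the ESC libraries at 20 h the noncoding transcript Gm26917 held 11% and 10.8% of all FPKM, and the mitochondrial rRNA genes went from 0.149% and 0.176% to 0.903% and 1.06%. Whether these shares account for the lower median was not tested. Each library was divided by its median ratio to the gene means of its own table, and values for single libraries below are FPKM after this step. The division also removes any real shift of most genes, which cannot be told apart here. "Higher" and "lower" are relative to the median member. The rescaling factors shift the difference by 0.76 before the pseudocount of 0.1, and less in genes of low FPKM, and the median difference went from 0.04 to -0.69 without them. Of 53 named genes called higher at 20 h in ESCs, 17 had a change below 0 in ESCs without rescaling (Hist1h3b, Ckap2, Anln, Hmmr, Pabpn1, Hbs1l, Edc4, Skiv2l, Ptbp3, Polr2b, Dnajb11, Edem1, Jup, Ifitm3, Epha2, Pmm1 and Abcc5), as did Itgav of 36 called higher in iMEFs. Without rescaling the ESC changes of Foxm1, Igfbp3, Mettl6 and Ndufa13 stayed above 0 but were not called (0.02, 0.02, 0.07 and 0.30). The ESC and iMEF tables were normalized separately, so changes within each are compared and levels are not compared between them. Read depth was not given in the sources used here. Of the members, 135 were listed at 0 in at least 1 of the 8 libraries, 9 of them called. In data simulated from these libraries, a difference of 1 was given to 100 genes, a difference of 2 to another 100, and none to the rest. Of these, 53% and 76% were called. In the real data 37.4% of members were called, and the adjustment depends on that share, so these rates may not carry over.

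After rescaling, the ESC and iMEF responses differed at 3887 of the 10402 members (37.4%) at an adjusted p below 0.05 in limma's moderated test with Benjamini-Hochberg adjustment. The difference was higher for 2219 genes (21.3%) and lower for 1668 (16%). Without rescaling it was higher for 495 and lower for 5825, so the share of calls that were higher went from 57.1% to 7.83%. All 495 were among the 2219, and 67 of the 2219 turned lower. All 1668 lower genes remained lower, but leaving out rescaling shifts differences downward, so this is no check of them. A difference of at least 1 on the log2 scale was fitted for 859 of the higher and 411 of the lower genes, and of at least 2 for 141 and 49. At 3422 members (32.9%) every difference between an ESC library at 20 h and one at 0 h lay above every such difference in iMEFs, and at 2858 (27.5%) below.

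For most genes with a called difference, a change was called in ESCs and none in iMEFs. In ESCs 59.2% of members changed (3113 higher, 29.9%, and 3048 lower, 29.3%), and in iMEFs 22.3% (1053 higher, 10.1%, and 1265 lower, 12.2%). Without rescaling the counts were 600 and 8081 in ESCs and 288 and 2253 in iMEFs. The iMEF count of higher genes was 589 and 529 without the first and the second library at 0 h, and 554 and 482 without the first and the second at 20 h. Its count of lower genes was 724, 746 and 792 without the first at 0 h, the second at 0 h and the second at 20 h. Of the 2219 genes with a higher difference, 1236 rose in ESCs with no change called in iMEFs. A further 484 rose in both cell types, more in ESCs, 105 rose in ESCs and fell in iMEFs, 132 fell in both but further in iMEFs, and 220 fell in iMEFs with no change called in ESCs. Of the 1668 with a lower difference, 1207 fell in ESCs with no change called in iMEFs, 251 fell in both, more in ESCs, and 68 fell in ESCs and rose in iMEFs. The 5th to 95th percentiles of the change ran from -1.22 to 1.56 in ESCs and from -0.89 to 0.61 in iMEFs. Across the 10402 genes the ESC and iMEF changes had a Spearman correlation of 0.51 and a Pearson correlation of 0.38, as a description over genes that share these 8 libraries.

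**Figure D1:**
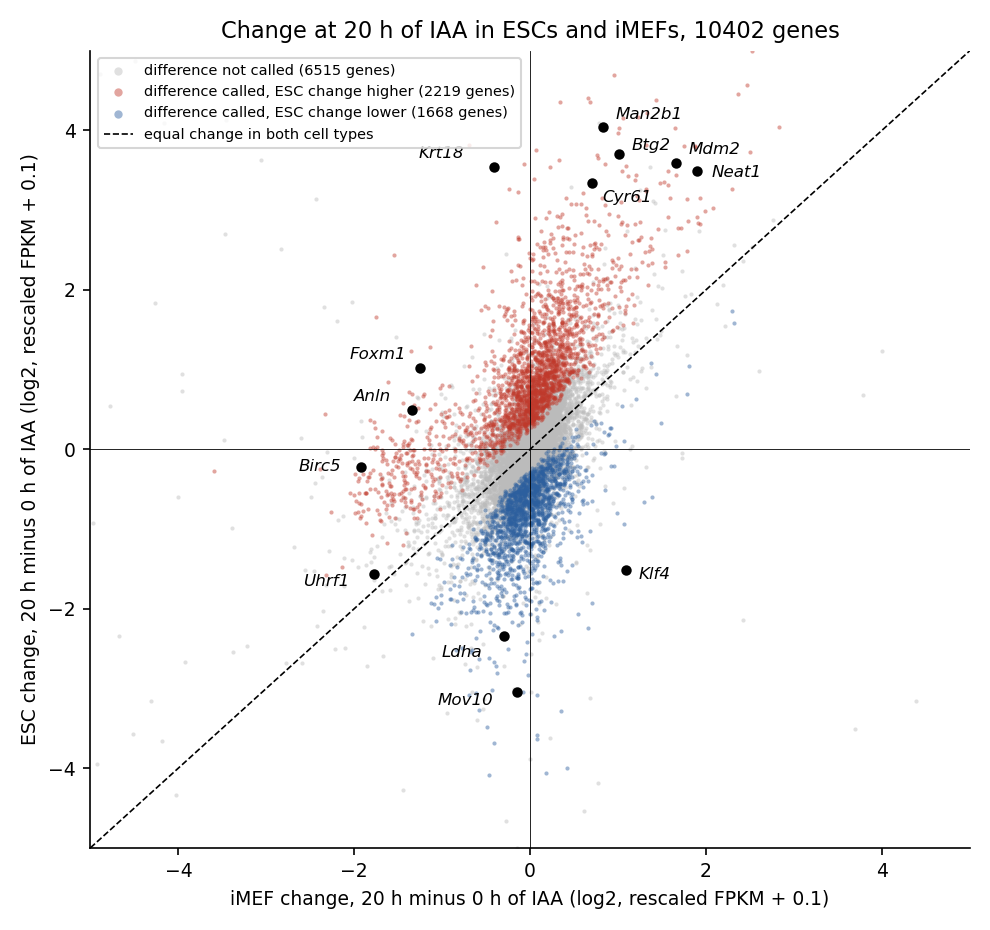
Log2 change from 0 h to 20 h of IAA in iMEFs (x axis) and ESCs (y axis), 1 point per member gene after rescaling, with a dashed line of equal change; colours mark genes whose difference was called higher or lower, and 29 genes beyond 5 on either axis are not drawn. The cloud is stretched along the ESC axis, with 5th to 95th percentiles of -1.22 to 1.56 in ESCs and -0.89 to 0.61 in iMEFs, and named genes such as Krt18 and Klf4 lie far from the diagonal.

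Of 8 p53 feedback regulators 7 rose in ESCs and 6 in iMEFs, of 14 arrest targets 10 and 9, and of 14 cell death targets 12 and 11. The feedback regulators, which act back on p53, had 6 of 8 members higher in the difference and none lower, with a median difference of 1.16 (1.70 in ESCs, 0.87 in iMEFs), and without rescaling 4 were higher and 2 lower. Over all members the median difference was 0.04. Mdm2, the ubiquitin ligase that degrades p53, measured 15.4 and 13.9 at 0 h and 179.8 and 176 at 20 h in ESCs. In iMEFs it measured 36.1 and 37.4 at 0 h and 114 and 119 at 20 h. In both cell types the 20 h libraries lay far above the 0 h ones, and the step was the larger in ESCs. The changes were 3.60 and 1.66 on the log2 scale, and the difference was 1.94 ± 0.09 (± standard error, adjusted p = 6.8e-05 in limma).

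Trp53inp1, a stress-induced cofactor of p53, went from 12.3 and 13 to 117 and 114 in ESCs and from 35.2 and 34.6 to 82.1 and 81 in iMEFs. Its difference was 1.96 ± 0.07 (adjusted p = 3.7e-05). Ccng1, which encodes cyclin G1, a p53 target that recruits a phosphatase to Mdm2, went from 20.5 and 20.8 to 105 and 99.4 in ESCs and from 110.4 and 106 to 212 and 212 in iMEFs. The 20 h libraries were the higher in each cell type and the fold was smaller in iMEFs, with a difference of 1.33 ± 0.08 (adjusted p = 1.4e-04). The stretch around the start of these genes is shown because p53 binds DNA at pairs of a 10-base decamer, printed here in capitals where a match was found. The sequences are RefSeq's for GRCm38.p6, from 250 bases before to 50 after the gene's start, and both lie on the minus strand, Mdm2 at chr10:117710709-117711008 and Ccng1 at chr11:40755237-40755536.
Mdm2: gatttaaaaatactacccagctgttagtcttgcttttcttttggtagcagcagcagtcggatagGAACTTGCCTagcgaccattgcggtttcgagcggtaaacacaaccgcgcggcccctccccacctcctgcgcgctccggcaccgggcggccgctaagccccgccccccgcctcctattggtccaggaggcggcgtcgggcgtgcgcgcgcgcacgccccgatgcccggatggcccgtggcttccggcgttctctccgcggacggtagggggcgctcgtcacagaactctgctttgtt
Ccng1: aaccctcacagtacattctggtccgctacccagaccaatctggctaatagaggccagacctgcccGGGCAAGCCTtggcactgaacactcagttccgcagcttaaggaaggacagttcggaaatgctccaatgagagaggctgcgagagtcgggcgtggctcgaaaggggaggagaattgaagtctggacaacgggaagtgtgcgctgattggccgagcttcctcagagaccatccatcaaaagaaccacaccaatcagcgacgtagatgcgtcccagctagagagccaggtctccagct
A p53 decamer on either strand was present in 5 of the 6 feedback regulators with a promoter in the table (83.3%), in 4 of 12 arrest genes (33.3%) and in 4 of 11 death genes (36.4%). Of all tested genes with a promoter 7.7% held one, as did 9.18% of those called higher and 6.68% of those called lower. A match is a description of these letters and not a bound site.

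Among p53 targets of cell cycle arrest, 9 of 14 were higher and 2 lower, with a median of 1.11, and without rescaling 7 were higher and 4 lower. Btg2, an antiproliferative cofactor of mRNA deadenylation, went from 4.68 and 3.63 to 55.4 and 54.4 in ESCs and from 73.6 and 76.9 to 156 and 148 in iMEFs. It rose in both, and its difference was 2.69 ± 0.16 (adjusted p = 1.5e-04). Ddit4, an inhibitor of the growth kinase mTORC1, rose by 3.49 in ESCs and 1.04 in iMEFs (difference 2.45 ± 0.18). Trp53i11 rose by 1.99 in ESCs with 0.02 in iMEFs, not called there, and a difference of 1.97 ± 0.16. Of the p53 targets of cell death 8 of 14 were higher and 3 lower, with a median of 0.96, and without rescaling 5 were higher and 6 lower. Phlda3, an inhibitor of AKT signalling, rose by 2.40 and 1.00 (difference 1.40 ± 0.09), and Perp, a desmosome-linked death effector that is also on the epithelial list, by 3.44 and 1.65 (difference 1.79 ± 0.13). Ckap2, a spindle protein on the same list, rose by 0.91 in ESCs and fell by 0.36 in iMEFs.

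All 36 mitotic genes fell in iMEFs, with a median change of -1.54, whereas in ESCs 20 fell, 5 rose and the median was -0.29. The difference was higher for 35 of 36 and lower for none, with a median of 1.44, and without rescaling it was higher for 25 and lower for none (median 0.68). With any one library left out 34 to 36 were higher. Anln, which encodes the actin-binding protein anillin of the cleavage furrow, measured 20.1 and 20.4 at 0 h and 29.1 and 28.2 at 20 h in ESCs. In iMEFs it measured 21.1 and 22.7 at 0 h and 8.65 and 8.53 at 20 h. After rescaling the ESC libraries at 20 h lay above those at 0 h and the iMEF libraries at 20 h below, without overlap, whereas without rescaling the ESC change was -0.51. Its difference was 1.84 ± 0.08 (adjusted p = 6.3e-05).

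Hmmr, which encodes a spindle-associated hyaluronan receptor, followed the same order, from 16.2 and 16.5 to 24.3 and 24.1 in ESCs and from 11.5 and 10.9 to 4.58 and 4.24 in iMEFs, with an ESC change of -0.45 without rescaling (difference 1.88 ± 0.09, adjusted p = 7.2e-05). Birc5, which encodes survivin of the chromosomal passenger complex, fell in both cell types, from 43.2 and 43.5 to 36.7 and 37.7 in ESCs and from 16.5 and 17.2 to 4.29 and 4.50 in iMEFs. The fall was small in ESCs and large in iMEFs, and the difference was 1.70 ± 0.08 (adjusted p = 6.4e-05). Foxm1, the transcription factor that drives mitotic genes, rose in ESCs after rescaling, from 6.17 and 7.40 to 13.8 and 13.9, where its deposited means were 9.01 and 9.14 FPKM, and fell in iMEFs, from 7.20 and 7.61 to 2.96 and 3.16. Its difference of 2.27 ± 0.14 had an adjusted p of 1.7e-04. In the polyadenylated libraries RAD0 and RAD1, described below, the change of Foxm1 was 0.19, not called, and -0.34, called lower. Kif18b, a microtubule-depolymerizing kinesin outside the list, rose from 8.05 and 8.06 to 27.1 and 27.5 in ESCs and fell from 4.31 and 5.01 to 2.71 and 3.62 in iMEFs, where 1 library at 20 h was close to those at 0 h. Its difference was 2.30 ± 0.20 (adjusted p = 4.7e-04).

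The promoters of 3 of these genes are shown because they carry letters that the DREAM complex (TTTGAA) and the factor NF-Y (CCAAT) are known to bind in mitotic genes, Anln holding TTTGAA alone. Capitals mark CCAAT and TTTGAA on either strand, so that ATTGG and TTCAAA are the same motifs read from the other strand. Sequences are RefSeq's for GRCm38.p6, all on the minus strand, Kif18b at chr11:102925075-102925374, Hmmr at chr11:40733388-40733687 and Anln at chr9:22389157-22389456.
Kif18b: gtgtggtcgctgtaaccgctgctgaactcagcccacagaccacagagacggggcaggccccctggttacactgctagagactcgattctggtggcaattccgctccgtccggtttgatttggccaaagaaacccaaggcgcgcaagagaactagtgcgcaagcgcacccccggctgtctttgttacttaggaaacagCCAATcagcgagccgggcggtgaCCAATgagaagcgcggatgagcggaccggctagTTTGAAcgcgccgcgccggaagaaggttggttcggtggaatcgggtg
Hmmr: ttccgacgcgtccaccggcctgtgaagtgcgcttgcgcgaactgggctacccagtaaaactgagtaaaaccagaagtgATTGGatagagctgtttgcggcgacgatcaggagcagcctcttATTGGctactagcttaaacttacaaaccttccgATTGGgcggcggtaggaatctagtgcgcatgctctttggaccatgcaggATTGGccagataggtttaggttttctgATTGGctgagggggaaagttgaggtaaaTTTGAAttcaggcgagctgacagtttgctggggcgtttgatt
Anln: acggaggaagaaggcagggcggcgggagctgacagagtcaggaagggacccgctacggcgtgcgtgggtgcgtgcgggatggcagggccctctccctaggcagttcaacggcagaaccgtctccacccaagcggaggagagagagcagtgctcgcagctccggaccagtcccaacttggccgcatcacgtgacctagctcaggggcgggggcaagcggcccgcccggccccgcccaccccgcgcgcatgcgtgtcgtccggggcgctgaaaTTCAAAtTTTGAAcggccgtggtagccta
Among the 28 mitotic genes with a promoter in the table, 22 held CCAAT (78.6%) and 20 held TTTGAA (71.4%). The shares over all tested genes with a promoter were 44.1% and 13.8%. Genes called higher held them at 47% and 16.3% and genes called lower at 43.2% and 15.1%, so the motifs were about as frequent in both directions of the difference as in the background.

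Genes of the G1/S transition and of DNA replication fell in both cell types, 32 of 37 in ESCs and 31 of 37 in iMEFs, with median changes of -0.71 and -1.27. Of the differences 16 were higher and 7 lower (median 0.38), and without rescaling the direction turned, with 1 higher, 15 lower and a median of -0.38. Mcm3, a subunit of the replicative helicase, fell from 91.8 and 88.8 to 59.7 and 59 in ESCs and from 23.6 and 22.9 to 8.56 and 8.39 in iMEFs. The fall was deeper in iMEFs after rescaling, with a difference of 0.84 ± 0.07 (adjusted p = 4.1e-04), which was 0.08 and not called without it. Rrm2, a subunit of ribonucleotide reductase, changed by -0.08 in ESCs, not called, and fell by 1.34 in iMEFs (difference 1.26 ± 0.12). Prim1, a primase subunit, fell by 0.56 and 1.62 (difference 1.06 ± 0.10, not called without rescaling at 0.30). The E2F-like letters TTTCCCGC stood in 6 of the 30 promoters of this list (20%) and in 2.76% of all tested promoters, and CCAAT in 21 (70%).

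The replication-dependent histone genes, whose transcripts end in a stem loop and are made in S phase, fell in iMEFs at 48 of 56 members, with a median of -1.19. In ESCs 24 fell and 7 rose (median -0.28). There were 41 higher and 2 lower differences (median 0.77), and without rescaling 9 and 7 (median 0.01). Without the first ESC library at 0 h the count of higher genes was 29. Hist1h2ah went from 140.2 and 153 to 137 and 111 in ESCs and from 48.8 and 49.4 to 10.2 and 8.56 in iMEFs (difference 2.13 ± 0.17). Hist1h3b rose from 95.8 and 197 to 258 and 234 in ESCs after rescaling, where its deposited means were 192.4 and 162.6 FPKM, and fell from 87.4 and 80.2 to 26.8 and 27.9 in iMEFs, with a wide error (difference 2.45 ± 0.42, adjusted p = 0.0057). These genes are near-identical copies that share reads, so values of single histone genes are uncertain.

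Of 31 epithelial junction and keratin genes listed, 14 were members, and these rose in ESCs and as a group did not in iMEFs. In ESCs 13 of 14 rose, with a median of 2.28, and in iMEFs 4 rose and 2 fell (median 0.13). The difference was higher for 13 and lower for none (median 1.95), and without rescaling higher for 8 and lower for 1. Krt18, a keratin of simple epithelia, had the largest higher difference among the called members with a mean of 5 or more FPKM in both cell types at 0 h and no overlap between the changes. It measured 6.47 and 6.30 at 0 h and 74.8 and 76.4 at 20 h in ESCs. In iMEFs it measured 39.6 and 33.7 at 0 h and 25.8 and 29.1 at 20 h. The ESC libraries at 20 h stood far above those at 0 h, and the iMEF libraries at 20 h lay below those at 0 h. The difference was 3.96 ± 0.13 (adjusted p = 3.3e-05). Jup, which encodes plakoglobin of junctions, rose by 0.75 and 0.33, and its difference of 0.42 ± 0.07 turned to -0.34 without rescaling. The epithelium marker list, as deposited and before rescaling, summed to 123 to 134 FPKM in ESCs at 0 h and 153 to 154 at 20 h, and to 54.2 to 60.4 and 37.4 to 40.8 in iMEFs. Its most abundant ESC markers at 0 h, Epcam and Cdh1, were not members. As deposited in ESCs, Epcam went from 73.8 and 68.3 to 33.1 and 30.9, and Cdh1 from 45.5 and 41.0 to 37.2 and 39.3. These values are not on the scale of the rises above, since without rescaling ESC changes shift by -1.01 on the log2 scale. Cdh1 fell by less than that shift and Epcam by slightly more. Krt7, Krt8, Krt18 and Krt19 were higher at 20 h in the same libraries. The part of other cell types in these values was not tested.

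**Figure D2:**
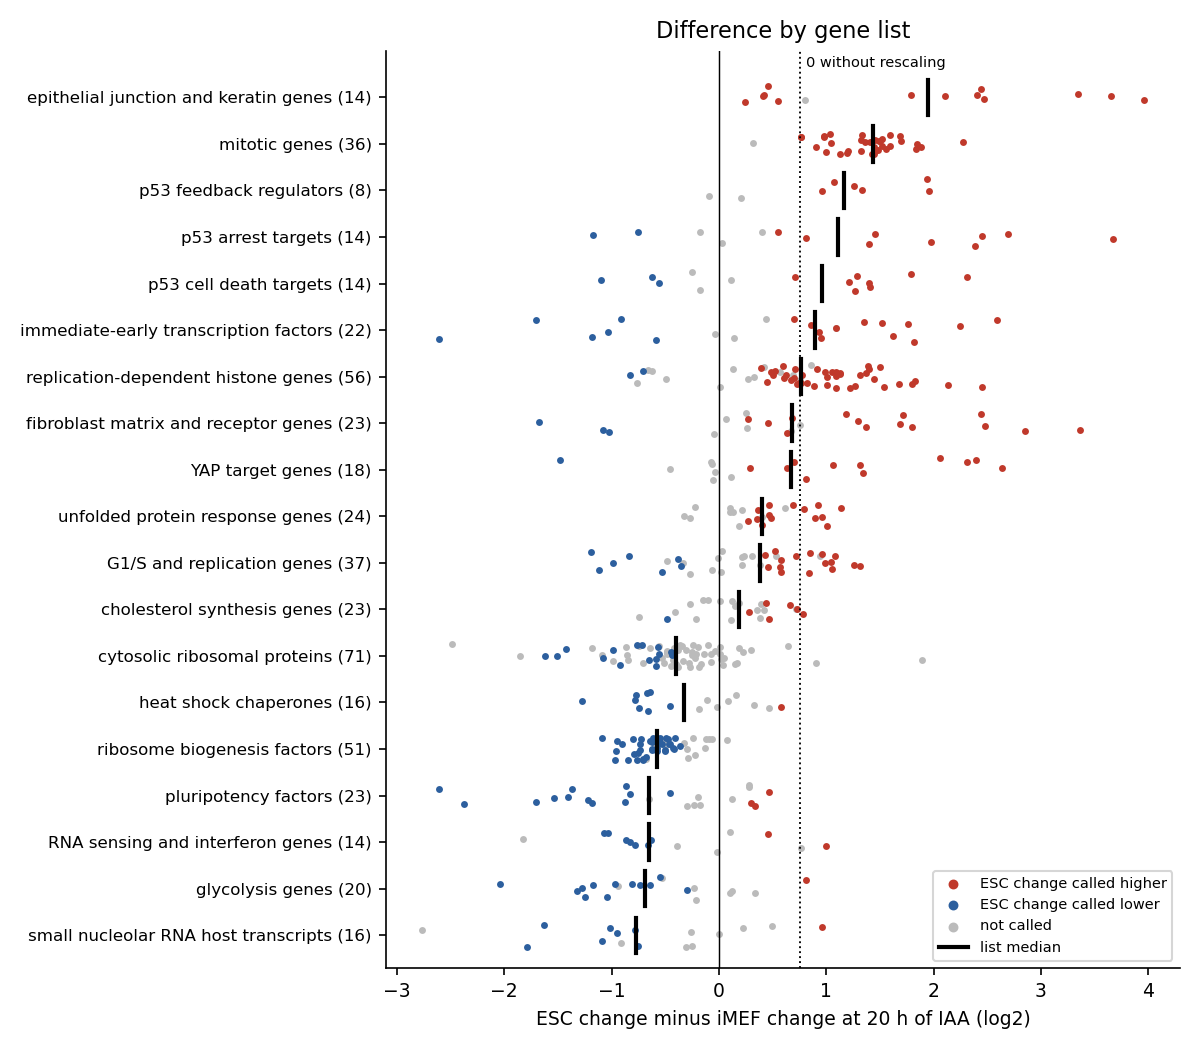
Difference of the 20 h changes (ESC minus iMEF, log2, x axis) for the members of each gene list (rows), 1 point per gene after rescaling, coloured by its call, with the list median as a bar; the dotted line at 0.76 marks the shift that the rescaling factors give before the pseudocount. The epithelial (median 1.95) and mitotic (1.44) genes lie right of both lines and the ribosome biogenesis factors (-0.57) left of both, while the G1/S list (0.38) lies between them, and its median was -0.38 without rescaling.

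Genes of fibroblast matrix and its receptors also rose in ESCs, 14 of 23 with 3 falling (median 0.69), and in iMEFs, where their markers are abundant, 2 rose and none fell (median -0.02). The difference was higher for 14 and lower for 3 (median 0.68), and the median turned to -0.07 without rescaling, with 8 higher and 6 lower. Without the first ESC library at 0 h the median was 1.26 with 16 higher, and without the second the count of lower genes was 5. Vim, which encodes the intermediate filament vimentin, went from 18.8 and 18.4 to 57.8 and 55.9 in ESCs and from 406 and 404 to 387 and 380.3 in iMEFs. The iMEF libraries hardly moved, and the difference was 1.69 ± 0.07 (adjusted p = 5.7e-05). Cald1, an actin- and myosin-binding protein, rose by 2.47 in ESCs with -0.02 in iMEFs (difference 2.48 ± 0.08), and Itgav, an integrin subunit, by 2.00 and 0.21 (difference 1.80 ± 0.07). The fibroblast marker list itself summed in ESCs to 87.8 to 98.3 FPKM at 0 h and 55.3 to 58.7 at 20 h as deposited. These sums are before rescaling, without which ESC changes shift by -1.01 on the log2 scale before the pseudocount. The lower sums at 20 h therefore do not show a fall relative to the median member. As deposited, the first ESC library at 0 h held more Acta2 and Col3a1 than the second (9.2 against 1.5 and 3.2 against 0.3 FPKM). Their part in these results was not tested.

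Targets of the coactivator YAP were higher at 11 of 18 members and lower at 1 (median 0.67), with the median at -0.09 without rescaling (6 higher, 8 lower). Cyr61, a secreted matricellular protein and standard YAP target, went from 7.04 and 5.89 to 65.6 and 66.8 in ESCs and from 216 and 202 to 341 and 341 in iMEFs. It rose in both, and its difference was 2.63 ± 0.12 (adjusted p = 6.8e-05). Amotl2, a YAP-binding scaffold and feedback target, rose by 1.75 and 0.44 (difference 1.32 ± 0.07). Ctgf rose by 1.51 and 0.70, a difference of 0.81 ± 0.10 that was 0.06 and not called without rescaling. The TEAD letters GGAATG stood in 5 of 10 promoters of this list (50%), in 13.8% of all tested promoters and in 13.4% of those called higher.

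Immediate-early transcription factors, which respond to growth and stress signals, were higher at 12 of 22 and lower at 6 (median 0.90), and without rescaling at 6 and 8. Klf4, described with the pluripotency factors, is on both lists. Klf6, a zinc-finger factor, went from 5.20 and 5.35 to 25.8 and 25.5 in ESCs and from 22.1 and 22 to 30.5 and 29.5 in iMEFs (difference 1.82 ± 0.07, adjusted p = 4.6e-05). Dusp1, a phosphatase that inactivates MAP kinases, rose by 2.12 and 0.50 (difference 1.62 ± 0.13). The senescence-associated secretory list was mixed, 5 of 15 higher and 4 lower (median 0.23), and without rescaling 3 and 6. Its median was 0.58 without the first ESC library at 0 h, and with other single libraries left out it went down to 0.06, without the second ESC library at 0 h. In it Plaur, the urokinase receptor, rose by 2.54 in ESCs with 0.11 in iMEFs (difference 2.43 ± 0.09). Igfbp3 rose by 1.01 in ESCs (0.02 without rescaling, not called) and fell by 0.42 in iMEFs, a difference of 1.43 ± 0.07. Its relative Igfbp2 fell by 1.48 and 0.32 (difference -1.15 ± 0.11).

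Pluripotency factors were lower in the difference at 12 of 23 members and higher at 3 (median -0.65), and without rescaling at 20 and none. The 3 higher genes became 1 with any one iMEF library left out. In ESCs 15 of 23 fell, with a median of -1.03, and in iMEFs, where most of the network is silent and these members are those still at 1 FPKM, the median lay at 0 within rounding. Klf4, a pluripotency factor that fibroblasts also express, measured 15.6 and 16.3 at 0 h and 5.28 and 5.74 at 20 h in ESCs. In iMEFs it measured 4.67 and 4.68 at 0 h and 9.25 and 10.9 at 20 h. The libraries at 20 h lay below those at 0 h in ESCs and above them in iMEFs. The difference was -2.61 ± 0.14 (adjusted p = 9.0e-05), with -0.31 in ESCs and 0.28 in iMEFs at 4 h.

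Dnmt3a, a de novo DNA methyltransferase, fell from 18.4 and 15.7 to 2.98 and 3.24 in ESCs with iMEF libraries close together, from 17 and 15.8 to 16 and 15.9, where no change was called. Its difference was -2.38 ± 0.13 (adjusted p = 1.2e-04). Mycn, a MYC-family factor of growth, fell by 1.60 in ESCs with -0.06 in iMEFs (difference -1.54 ± 0.08). The 39 HOX cluster genes, which pattern the body axis, had no member, since none reached 1 FPKM at 0 h in both cell types.

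**Figure D3:**
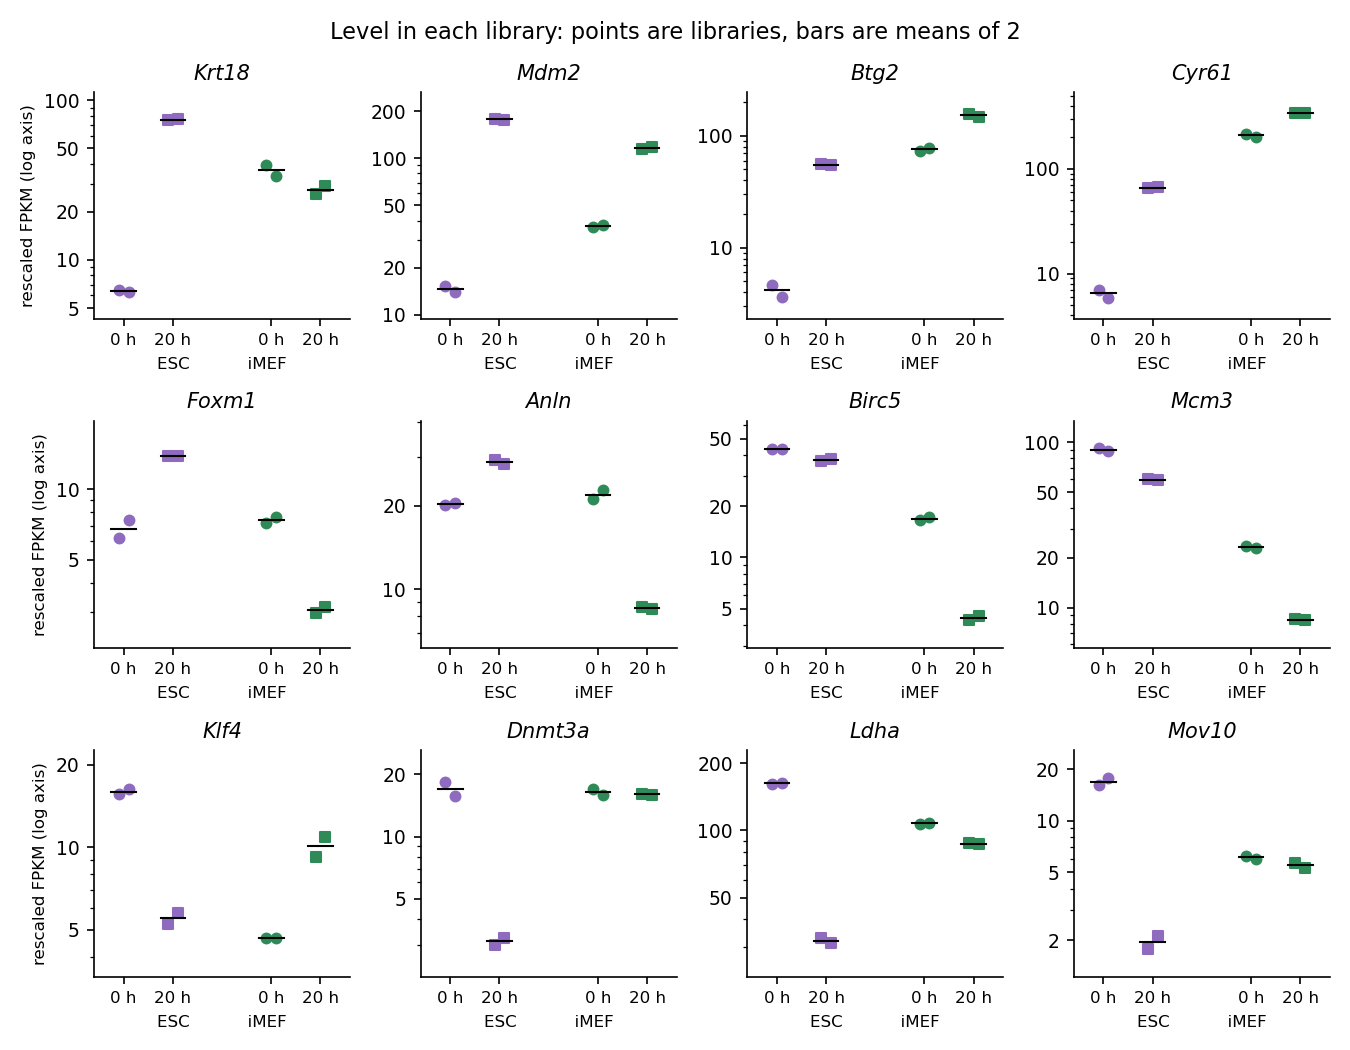
Rescaled FPKM (log axis) of 12 genes in each of the 8 libraries, by cell type and hour of IAA (x axis), points being libraries and bars the means of 2. Krt18 and Mdm2 rise steeply in ESCs, Anln rises in ESCs (its change there is -0.51 on the log2 scale without rescaling) and falls in iMEFs, and Klf4 moves down in ESCs and up in iMEFs; levels of ESCs and iMEFs are on separate scales.

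Genes that build ribosomes were lower in the difference. Of 51 ribosome biogenesis factors 37 were lower and none higher (median -0.57), and without rescaling all 51 were lower. In ESCs 47 fell (median -0.65), and in iMEFs 8 fell and 6 rose (median -0.08). Ddx21, a nucleolar helicase, went from 77 and 77.7 to 43.8 and 42.1 in ESCs and from 20.9 and 20.2 to 19.8 and 19 in iMEFs (difference -0.77 ± 0.07, adjusted p = 7.0e-04). Gnl3, which encodes nucleostemin, had a difference of -0.70 ± 0.08, and Nat10, an RNA acetyltransferase, -0.79 ± 0.09. The iMEF changes of all 3 were not called, at -0.08, -0.11 and -0.04.

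For cytosolic ribosomal proteins 15 of 71 were lower and none higher (median -0.40), and without rescaling 55 were lower. The median ran from -0.53 to -0.26 with 1 library left out, the latter without the first iMEF library at 20 h. That share of calls, 15 of 71, lies near the 16% of all members, although the median lies below theirs. Rpl27 fell by 1.47 in ESCs with 0.15 in iMEFs (difference -1.62 ± 0.21), Rpl34 by 1.20 with 0.30 (difference -1.51 ± 0.25) and Rpl14 by 0.82 with a fall of 0.24 (difference -0.58 ± 0.09). Ribosomal protein genes share reads with many processed pseudogenes, so these values are uncertain. Mitochondrial ribosomal proteins had 18 of 74 lower and none higher (median -0.24), with 66 lower without rescaling. Of all members 16% were lower with rescaling. The list's rescaled count of 18 was 11 without the second ESC library at 0 h and 10 without the first iMEF library at 20 h. In those settings 1217 and 1195 of the 10402 members were lower, so the share of the list lay near that of all members. Mrpl38 fell by 0.30 in ESCs and rose by 0.42 in iMEFs (difference -0.71 ± 0.09). Mrpl2 and Mrpl34 had differences of -0.95 ± 0.14 and -0.93 ± 0.14.

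Nuclear genes of oxidative phosphorylation were mixed, 7 of 70 higher and 16 lower (median -0.14), and none higher and 53 lower without rescaling. The counts moved with single libraries, to between 3 and 8 higher and between 7 and 17 lower, and the median to between -0.22 and -0.06. The higher count was 3 without the second ESC library at 0 h, the first iMEF library at 0 h or the second at 20 h, and 4 without the first ESC library at 20 h, the second iMEF library at 0 h or the first at 20 h. The lower count was 7 without the second iMEF library at 0 h, 8 without the first ESC library at 0 h or the first iMEF library at 20 h, and 9 without the second ESC library at 0 h. Cox5a, a cytochrome c oxidase subunit, fell by 1.08 in ESCs (difference -0.93 ± 0.12), Ndufc1 of complex I by 1.46 (difference -1.08 ± 0.14), whereas Ndufa13 of the same complex rose by 1.31 (difference 0.97 ± 0.12, 0.21 without rescaling and not called).

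Of 10 mitochondrially encoded members the 2 rRNAs were higher in the difference and none was lower, and 2 were higher and 4 lower without rescaling. mt-Rnr1, the small mitochondrial rRNA, went from 86.5 and 155 to 2013 and 2318 in ESCs and from 137 and 105 to 201 and 454 in iMEFs, with a wide spread and a difference of 2.89 ± 0.60 (adjusted p = 0.012). mt-Rnr2, the large one, rose by 2.51 and 0.78 (difference 1.73 ± 0.26). mt-Nd1, a complex I mRNA, had a difference of -0.51 ± 0.17 that was not called (adjusted p = 0.056). The libraries were depleted of rRNA, and how evenly that removed mitochondrial rRNA was not tested.

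Glycolysis genes were lower at 12 of 20 members and higher at 1 (median -0.69), and without rescaling lower at 16. Ldha, the lactate dehydrogenase subunit, measured 162 and 162 at 0 h and 32.9 and 31.2 at 20 h in ESCs. In iMEFs it measured 107 and 108 at 0 h and 87.5 and 87 at 20 h. The fall was steep in ESCs and slight in iMEFs, and the difference was -2.04 ± 0.07 (adjusted p = 3.3e-05). Tpi1, triosephosphate isomerase, fell by 1.84 and 0.52 (difference -1.33 ± 0.09), and Slc16a1, a lactate transporter, by 1.90 and 0.65 (difference -1.25 ± 0.08).

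Amino acid genes under ATF4 were lower at 10 of 23 and higher at 4 (median -0.19), and without rescaling at 16 and 1. Phgdh, the first enzyme of serine synthesis, fell by 2.51 in ESCs and 0.66 in iMEFs (difference -1.85 ± 0.23). Mthfd2, of mitochondrial folate metabolism, fell by 1.88 and 0.91 (difference -0.98 ± 0.09), and Sars, the seryl-tRNA synthetase, by 0.83 with 0.15 in iMEFs (difference -0.98 ± 0.09). Heat shock chaperones were lower at 8 of 16 and higher at 1 (median -0.32), and without rescaling at 13 and none. Hspd1 and Hspe1, the mitochondrial chaperonin pair, fell by 1.75 and 0.92 in ESCs, with differences of -1.27 ± 0.10 and -0.78 ± 0.13. Stip1, a cochaperone, had -0.46 ± 0.07.

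The unfolded protein response list went the other way, higher at 14 of 24 and lower at none (median 0.40), but without rescaling none was higher, 8 were lower and the median was -0.36. Manf, a secreted protein of the endoplasmic reticulum, fell by 1.06 in iMEFs with -0.16 in ESCs (difference 0.90 ± 0.09). Dnajb11, a chaperone of the same compartment, rose by 0.28 in ESCs and fell by 0.51 in iMEFs (difference 0.79 ± 0.08), and Edem1, of misfolded protein disposal, rose by 0.72 in ESCs (difference 0.96 ± 0.12). Without rescaling these 3 differences were 0.14, 0.03 and 0.22, none called.

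Cholesterol synthesis genes fell in both, 19 of 23 in ESCs (median -0.75) and all 23 in iMEFs (median -1.02). Of their differences 6 were higher and 1 lower (median 0.19), near the share of higher calls among all members, and without rescaling none and 11 (median -0.56). Without either ESC library at 0 h, or without the first iMEF library at 0 h, 3 were higher. Sc5d, an enzyme late in the pathway, had a difference of 0.73 ± 0.09, which turned to -0.02 without rescaling. RNA sensing and interferon genes were lower at 7 of 14 and higher at 2 (median -0.65), and without rescaling at 11 and none. Bst2, which encodes tetherin, fell by 0.69 in ESCs with 0.38 in iMEFs (difference -1.07 ± 0.18), and Irf1, an interferon regulatory factor, had -0.64 ± 0.12. Ifitm3 rose by 0.86 and 0.40, and its difference of 0.46 ± 0.11 turned to -0.30 without rescaling and was not called without either ESC library at 0 h, the first iMEF library at 0 h or the second at 20 h. It belongs to a family of near-identical copies, so its value is uncertain.

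Among the exosome's own subunits 1 of 11 was higher and 2 were lower (median -0.26), and without rescaling none and 10. The median was -0.13 without the first ESC library at 0 h, and with any 1 library left out 0 or 1 was higher and 1 to 3 were lower. Exosc5 and Exosc4, ring subunits, fell by 0.86 and 0.81 in ESCs with no change called in iMEFs, and had differences of -0.78 ± 0.15 and -0.89 ± 0.22. Exosc8, another ring subunit, fell by 1.09 in iMEFs, and its difference of 0.71 ± 0.21 turned to -0.05 without rescaling. The call of Exosc4 was lost in 4 of 16 alternatives, each leaving out 1 library (the second ESC library at 0 h, either iMEF library at 0 h, or the first at 20 h), and that of Exosc8 in 10, among them all libraries left out but the first of ESCs at 0 h and the first of iMEFs at 20 h. Of 16 nuclear cofactors 2 were higher and 1 lower (median -0.02), fewer than the background share, and without rescaling none and 12. Zfc3h1, of the poly(A) tail exosome targeting connection, rose by 1.58 and 0.76 (difference 0.82 ± 0.08, 0.07 without rescaling and not called). Papd5, the oligoadenylating polymerase of the TRAMP complex, had -0.63 ± 0.12, and Pabpn1, the nuclear poly(A)-binding protein, 0.57 ± 0.16, turning to -0.18. The call of Pabpn1 was lost in 8 alternatives, among them every library left out but the first ESC library at 20 h and the second iMEF library at 0 h.

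Cytoplasmic decay factors were higher at 4 of 32 and lower at none (median 0.09), also below the background share, and without rescaling at none and 23. Skiv2l, the helicase that feeds RNA to the cytoplasmic exosome, rose by 0.92 in ESCs with -0.05 in iMEFs. Its difference was 0.97 ± 0.16, and 0.22 without rescaling, not called. Edc4, of decapping, and Hbs1l, of ribosome rescue, had 0.65 ± 0.10 and 0.50 ± 0.07, which turned to -0.11 and -0.26.

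Host transcripts of small nucleolar RNAs were lower at 7 of 16 and higher at 1 (median -0.77), and without rescaling at 12 and none. In ESCs 6 rose and 6 fell, and in iMEFs 6 rose and none fell. Snhg5 fell from 62.6 and 59.1 to 15.8 and 15.7 in ESCs and stood near level in iMEFs, from 15 and 13.1 to 12.7 and 12.5 (difference -1.79 ± 0.11, adjusted p = 1.5e-04). Snhg12 fell by 1.10 in ESCs with 0.53 in iMEFs (difference -1.63 ± 0.26). Snhg20 rose by 3.27 and 2.30 (difference 0.96 ± 0.13, 0.21 without rescaling and not called). Nuclear long noncoding RNAs rose at 8 of 13 in each cell type, and the difference was higher for 5 and lower for 4 (median 0.38), turning to a median of -0.35 without rescaling, with 3 and 5, and to 0.22 without the second ESC library at 20 h. Neat1, the scaffold of paraspeckles, rose from 36.3 and 33.2 to 368 and 419 in ESCs and from 35.2 and 34.3 to 135 and 125 in iMEFs (difference 1.60 ± 0.12, adjusted p = 3.2e-04). Tug1 rose by 1.54 in ESCs with 0.09 in iMEFs (difference 1.46 ± 0.09). Mirg, an imprinted miRNA host transcript, fell by 0.90 in ESCs and rose by 0.44 in iMEFs (difference -1.35 ± 0.10).

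SR and hnRNP regulators were higher at 7 of 43 and lower at 7 (median -0.03), and without rescaling at none and 35. With rescaling, the higher share lay below the 21.3% of all members and the lower share near their 16%. The lower count was 4 without the second ESC library at 0 h, the second at 20 h, or the second iMEF library at 20 h. Hnrnpc had -0.63 ± 0.07 and Ptbp3 0.85 ± 0.13 (0.09 without rescaling, not called), and Sfpq had 0.61 ± 0.09, turning to -0.15. CLK splicing kinases with Wsb1, whose splicing they govern, were lower at 4 of 8 and higher at none (median -0.18), and without rescaling at 7. That count rested on all libraries being present, since leaving out 1 left between 0 and 3. It was 0 without the second iMEF library at 0 h or the first at 20 h, 2 without the second at 20 h, and 1 without either ESC library at 0 h, the first at 20 h or the first iMEF library at 0 h. Clk4 had -0.50 ± 0.13 and Clk2 -0.29 ± 0.09, and Srpk1, a kinase of SR proteins, -0.68 ± 0.17. The call of Clk2 was lost with any 1 library left out. That of Clk4 was lost without the first ESC library at 0 h or 20 h, the second iMEF library at 0 h or the first at 20 h, and that of Srpk1 without the second ESC library at 0 h, either iMEF library at 0 h or the first at 20 h. RNA polymerase II and elongation factors were lower at 11 of 40 and higher at 2 (median -0.15), and without rescaling at 34 and none. The lower count was 4 without the second iMEF library at 0 h or the first at 20 h, 5 without the first ESC library at 0 h, and 6 to 8 without any other. Paf1 of the elongation complex and the polymerase subunit Polr2g had -0.73 ± 0.10 and -0.66 ± 0.09, and Polr2b had 0.61 ± 0.08, turning to -0.15.

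Beyond these lists, Man2b1, the lysosomal alpha-mannosidase, was among the largest higher differences of called members at 5 or more FPKM and went from 4.39 and 5.13 to 82 and 77.2 in ESCs and from 14.6 and 15.3 to 27.2 and 26.3 in iMEFs. It rose in both, steeply in ESCs, with a difference of 3.21 ± 0.12 (adjusted p = 3.7e-05). Ahnak, a giant scaffold protein of the membrane, rose by 3.21 and 0.60 (difference 2.61 ± 0.09). Mcam, an adhesion molecule, rose by 2.91 and 0.34 (difference 2.57 ± 0.09). Serpinh1, the collagen chaperone of the endoplasmic reticulum, and Twsg1, an extracellular modulator of BMP signalling, rose by 2.31 and 2.24 in ESCs with no change called in iMEFs, and had differences of 2.44 ± 0.10 and 2.45 ± 0.11.

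The 12 largest lower differences at this level without overlap were of genes that fell in ESCs, and 2 of them, Klf4 and Fhl1, rose in iMEFs. Mov10, an RNA helicase that restrains retrotransposons, went from 16.1 and 17.7 to 1.79 and 2.13 in ESCs and from 6.22 and 6.01 to 5.70 and 5.27 in iMEFs. No iMEF change was called, and the difference was -2.89 ± 0.15 (adjusted p = 9.0e-05). Lgals9, the lectin galectin-9, fell from 5.87 and 3.93 to 0.307 and 0.110 in ESCs, below 1 FPKM, and measured 6.84 and 5.66 at 0 h and 6.68 and 7.46 at 20 h in iMEFs (difference -4.24 ± 0.47, adjusted p = 0.0012). At such low 20 h values the pseudocount enters the fold change, and with a pseudocount of 1 the difference of Lgals9 was -2.43. Acaa2, a thiolase of fatty acid oxidation, had -3.16 ± 0.43 (-1.98 with a pseudocount of 1), Mras, a RAS-family GTPase, -2.97 ± 0.20, and Isyna1, the inositol phosphate synthase, -2.26 ± 0.12.

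Sfrp1, a secreted inhibitor of Wnt signalling, fell by 3.06 in ESCs and by 0.61 in iMEFs (difference -2.45 ± 0.07). Klhl13, an adaptor of a ubiquitin ligase, fell by 2.80 in ESCs with -0.37 in iMEFs (difference -2.43 ± 0.21), and Myrf, a membrane-bound transcription factor, by 2.66 (difference -2.58 ± 0.18). Ccdc85b had a difference of -2.62 ± 0.64 with a standard error far larger than its neighbours, and its call was lost in 5 of 16 alternatives, without the second ESC library at 0 h, either iMEF library at 0 h or the second at 20 h, and with a replicate block.

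Opposite changes, called in both cell types, were found at 173 genes, 105 up in ESCs and down in iMEFs and 68 the reverse, and without rescaling at 26 and 36. Tubb6, a beta-tubulin, rose from 17.8 and 15.8 to 58.1 and 56.6 in ESCs and fell from 110.3 and 106 to 77.3 and 77.8 in iMEFs (difference 2.25 ± 0.10, adjusted p = 5.7e-05). The reverse held for Fhl1, a LIM-domain protein of muscle and fibroblasts, which fell from 14.4 and 12.6 to 3.27 and 3.00 in ESCs and rose from 105 and 109 to 157 and 156 in iMEFs (difference -2.62 ± 0.11, adjusted p = 5.7e-05). Sgk1, a serum- and glucocorticoid-regulated kinase, fell by 1.53 in ESCs and rose by 0.42 in iMEFs (difference -1.94 ± 0.07). Glb1, the lysosomal beta-galactosidase, fell by 1.16 and rose by 0.59 (difference -1.75 ± 0.20), and Ets2, an ETS transcription factor, fell by 0.65 and rose by 0.71 (difference -1.35 ± 0.10). Leaving out rescaling makes lower differences more negative, so none of these could turn.

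Many changes were shared. Of 1855 genes called in both cell types, 1682 moved the same way, 850 up and 832 down. The difference was not called for 799 of these, and for 418 its 95% interval lay within 0.5 of 0 on the log2 scale. Pcf11, a factor of transcript cleavage and termination, rose by 1.34 in ESCs and 1.17 in iMEFs, with a difference of 0.17 ± 0.09 (95% interval -0.04 to 0.38). Epha2, an ephrin receptor and p53 target, rose by 0.97 and 1.06 (-0.09 ± 0.08, interval -0.27 to 0.09). Pmm1, Mettl6 and Abcc5 rose in both, with differences of -0.09 ± 0.14, 0.18 ± 0.12 and 0.15 ± 0.09. Uhrf1, which maintains DNA methylation, fell by 1.56 and 1.77 (0.21 ± 0.09), and Nasp, a histone chaperone, by 1.24 and 1.33 (0.09 ± 0.07). Sqle and Insig1 of sterol metabolism and Bcat1, an aminotransferase, fell with differences of -0.10 ± 0.08, -0.27 ± 0.09 and 0.14 ± 0.14. Without rescaling all 10 differences were negative, from -0.55 at Uhrf1 to -1.01 at Insig1.

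Libraries that the difference did not use gave a view of the ESC side. The series holds polyadenylated RNA of the same ESC line with no retinoic acid (RAD0) and after 1 day in 2 µM retinoic acid without LIF (RAD1), 2 libraries each at 0 h and 20 h of IAA. Of the 10402 members 9994 were also tested there, and 53.4% changed in RAD0 (2657 higher, 2681 lower, and 1540 and 4293 without rescaling) and 58.8% in RAD1 (29% higher, 29.8% lower). Of 2121 genes with a higher ESC minus iMEF difference, 1350 rose in RAD0 (63.6%, against 26.6% of all) and 148 fell, with a median change of 0.51. Of 1649 with a lower difference, 1103 fell (66.9%, against 26.8% of all) and 66 rose, with a median of -0.50. In RAD1 the medians were 0.50 and -0.42.

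The difference between RAD0 and RAD1, which sets ESCs against ESCs 1 day into differentiation, was called for 25.2% of genes, 1315 higher (13.2%) and 1201 lower (12%), and without rescaling 1089 and 1510. Without the first RAD1 library at 0 h 866 were higher, and without the second 872. It divided the genes far less, with 20.7% higher and 15.5% lower among the genes with a higher ESC minus iMEF difference and 12.2% and 16.6% among those with a lower one. Over the 9994 genes the 2 differences had a Spearman correlation of 0.10. The mitotic list was higher in both, at 31 of 36 genes for RAD0 minus RAD1, with median changes of 0.11 in RAD0 and -0.75 in RAD1. The epithelial list had median changes of 1.36 in RAD0 and 2.48 in RAD1, and the p53 feedback regulators 1.85 and 1.99. For the epithelial genes RAD0 minus RAD1 was higher at none and lower at 6 of 12. Krt18 rose by 1.79 in RAD0 and 1.98 in RAD1, Mdm2 by 3.38 and 3.48, and Klf4 changed by -0.95 and 0.13. Of the glycolysis genes 12 of 20 were higher for RAD0 minus RAD1, whereas 12 of 20 were lower for ESC minus iMEF. Of the pluripotency factors 13 of 22 were lower for RAD0 minus RAD1, the same direction as for ESC minus iMEF.

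**Figure D4:**
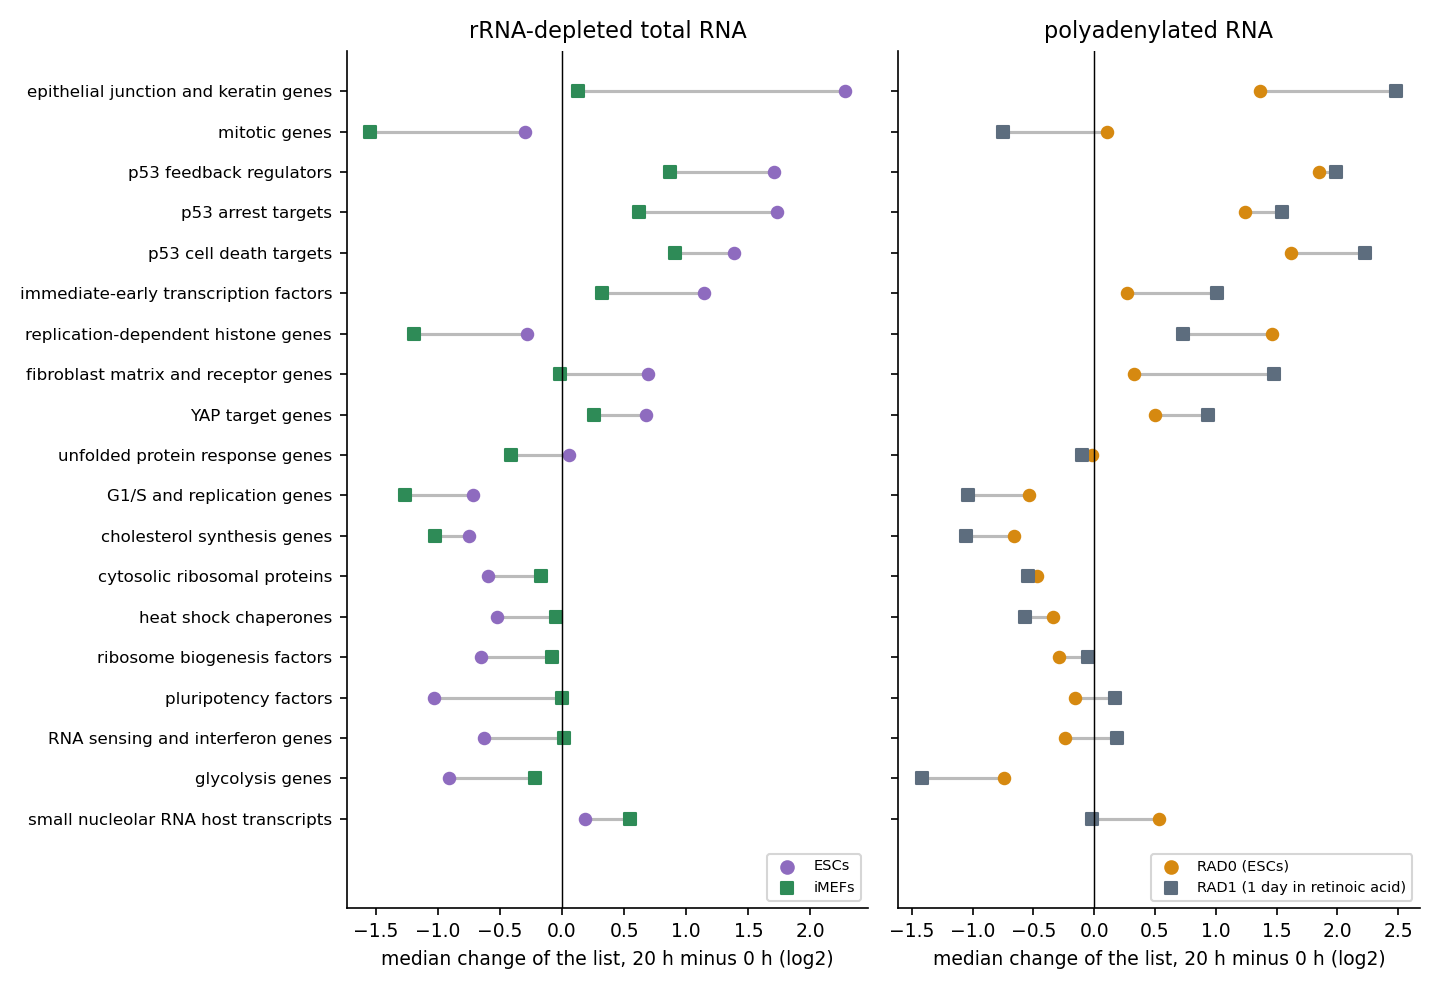
Median log2 change from 0 h to 20 h of IAA (x axes) over the members of each gene list (rows), for ESCs and iMEFs on the left and RAD0 and RAD1 on the right, after rescaling within each table. Without the rescaling factors, ESC changes would shift by -1.01 and iMEF changes by -0.25 before the pseudocount. The mitotic genes lie at -0.29 in ESCs and -1.54 in iMEFs, and at 0.11 in RAD0 and -0.75 in RAD1, and the epithelial genes lie at 2.28, 0.13, 1.36 and 2.48.

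Over all members the difference was called higher at 21.3% and lower at 16%. Of 9185 protein-coding members 2102 were higher and 1528 lower (median 0.05), and without rescaling 461 and 5340 (median -0.69). Of 66 lincRNAs 18 were higher and 12 lower (median 0.14), turning to 5 and 26 without rescaling (median -0.59). Small nucleolar RNAs, whose processing the exosome completes, had a median of 0.79 with 9 of 83 higher and none lower, both below the shares over all members. Without rescaling they had a median of 0.08 with 5 higher and 2 lower, and short RNAs are poorly measured in FPKM. Processed pseudogenes, which share reads with their parent genes, had 42 of 723 higher and 101 lower (median -0.13), also both below the shares over all members. Without rescaling 8 were higher and 365 lower (median -0.88). The median genomic span of coding members was 22.6 kb, against 25.6 kb for those called higher and 20.7 kb for those called lower. By chromosome the share called higher ran from 16.8% on chromosome 5 to 26.1% on chromosome 14, and the share called lower from 13.8% on chromosome 19 to 18.7% on chromosome 11. In the promoters the AP-1 letters TGANTCA stood in 5.02% of tested genes, 5.43% of those called higher and 5.15% of those called lower, and the ATF4-like letters TGATGNAA in 2.29%, 2.92% and 2.09%.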

How the data were processed

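RNA was measured by sequencing of rRNA-depleted total RNA, and of polyadenylated RNA for RAD0 and RAD1. The authors deposited FPKM values per gene. The submitters' processing notes name TopHat2 2.0.11, Cufflinks 2.0.2 and the mm10 build, without roles. Depth was not given in the sources used here, so no counting interval could be given. Members, gene lists and tests were chosen with earlier results of these data known.

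From the deposited FPKM, each library was divided by its median ratio, over members, to the gene means of its own table. The log2 of rescaled FPKM plus 0.1 entered limma (version 3.58.1, trended prior) with 8 libraries in 4 groups, and the interaction contrast was tested with Benjamini-Hochberg adjustment over 10402 genes at 0.05. RAD0 and RAD1 were fitted likewise. The fits were tested on simulated data. Named genes were the 12 largest called differences per direction at 5 or more FPKM at 0 h without overlap, the 5 largest opposite ones per direction, the 3 smallest p-values per list, 5 shared rises and 5 shared falls, and Exosc2; 2 genes the rule picked are not reported here. Alternatives were no rescaling, a pseudocount of 1, other filters, no trend, the 4 h libraries, the replicate block, and each library left out. Promoters were matched by symbol for 7366 members in RefSeq's table (GRCm38.p6).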

Additional observations from a re-analysis of the deposited data

Results flagged for a closer look

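These genes, all of which changed after rescaling in both cell types with opposite signs, were picked out because the interaction test called their difference between ESCs and iMEFs. Higher in ESCs and lower in iMEFs were Krt18 (difference 3.96 on the log2 scale), Hist1h3b (2.45), Kif18b (2.30), Foxm1 (2.27) and Tubb6 (2.25). Lower in ESCs and higher in iMEFs were Fhl1 (-2.62), Klf4 (-2.61), Sgk1 (-1.94), Glb1 (-1.75) and Ets2 (-1.35). The difference kept its sign without rescaling for all 10. The shift is -0.76 before the pseudocount, less than each higher difference and away from 0 for the lower ones. No sign could therefore turn on leaving out rescaling. The ESC rises of Foxm1 and Hist1h3b were not called without it, with deposited means of 9.01 and 9.14 FPKM for Foxm1 and of 192.4 and 162.6 FPKM for Hist1h3b at 0 h and 20 h, and neither were the iMEF rises of Fhl1, Sgk1 and Glb1. Each group held 2 libraries, too few to test for a library that stands apart.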

How the results depend on the processing

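Rescaling was the choice that moved the results most. Without it the difference was higher at 495 genes and lower at 5825, the ESC change at 600 and 8081, the iMEF change at 288 and 2253, and the RAD0 change at 1540 and 4293. Differences of 15 named genes changed sign without it, namely Exosc8 (-0.045), Pabpn1 (-0.18), Hbs1l (-0.26), Edc4 (-0.11), Sfpq (-0.15), Polr2b (-0.15), Jup (-0.34), Ifitm3 (-0.30), Sc5d (-0.018), Pcf11 (-0.58), Mettl6 (-0.58), Abcc5 (-0.60), Uhrf1 (-0.55), Bcat1 (-0.63) and Nasp (-0.67). Bcat1 also changed sign with a pseudocount of 1 (-0.052). With 1 library left out at a time Bcat1 ran from -0.015 to 0.28 and Pmm1 from -0.23 to 0.056, neither called in the full set. With a 0 h mean of 5 or more, where fewer genes were tested, 1440 differences were higher, and the ESC change was called at 1897 higher and 1893 lower. With no filter 5672 genes were higher in ESCs, where more were tested. Leaving out 1 library at a time gave 1684 to 2024 higher and 1189 to 1643 lower differences, 482 to 1087 higher and 724 to 1338 lower genes in iMEFs, and 866 to 1053 higher for RAD0 minus RAD1. Of 122 named genes 110 were called, and 84 kept their call and direction in all 16 alternatives.

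Replicates with the same number deviated together only weakly or not at all (correlations 0.13 in ESCs, -0.10 in iMEFs, -0.21 in RAD0, -0.10 in RAD1). With 2 libraries per group these values cannot settle whether same-numbered libraries share a culture or batch. With a replicate block within cell type the difference was higher at 1919 and lower at 1389 genes, the ESC change at 2957 and 2864, the iMEF change at 715 and 957, the RAD0 change at 2477 and 2549, and RAD0 minus RAD1 at 999 and 956. A crossed pairing within RAD0 and RAD1, added after seeing the data, gave 2460 and 2506 for RAD0 and 1021 and 943 for RAD0 minus RAD1. Leaving out genes with an exact 0, also added after seeing the data, gave 2279 higher and 1719 lower differences. With 2 libraries per group and no counts, small differences of low genes were not resolvable here.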
